A study of Mus musculus with 12 samples.

Results

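The ATF4 program with amino acid synthesis is followed here as 37 genes, taken by their symbols from the 25230 genes counted by RNA-seq in mesangial cells (MMC) of mice. The 37 genes were 6 transcription factors, 7 feedback and stress effectors, 4 genes of asparagine and serine synthesis, 6 folate one-carbon enzymes, 4 genes of proline synthesis and transamination, 2 of transsulfuration and 8 amino acid transporters. The rule used their symbols only, but the members were chosen with earlier results of these data known. MMC are contractile cells that hold the capillary loops of the kidney's filter together, and they were grown from glomeruli of wild-type (WT) mice and of the lncMGC-KO5 line, in medium with serum. The KO5 line is a single line of mice that came from C57BL/6J embryos injected with Cas9 and guides around the start site of lncMGC, a long non-coding RNA that hosts a cluster of microRNAs, and were crossed to C57BL/6. The cells were untreated serum-depleted controls (SD) or were given 10 ng/ml TGF-β, the cytokine that drives matrix production in the glomerulus, for 24 h. These made 4 groups of 3 libraries, named WT-SD and WT-TGF, and likewise KO-SD and KO-TGF, with 19898050 to 22827706 counts on genes. Whether the cells given TGF-β were serum-depleted too is not said in the sources used here. A difference in serum, if there was one, cannot be told apart from TGF-β. Numbers, ages and sexes of the mice were not given in the sources used here, and although the samples are called independent there, whether the 3 libraries of a group came from separate cultures or mice is not said, so the tests measure the spread between these libraries.

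lncMGC is not among the genes counted. Mirg, an RNA from the end of the same locus, had 2.14 to 2.68 CPM (counts scaled to the same depth in each library) in WT-SD, 3.45 to 3.75 in WT-TGF, 3.31 to 4.30 in KO-SD and 3.64 to 4.65 in KO-TGF. It thus did not check the labels, and KO stands throughout for the libraries labelled KO, in which the genotype and the cultures it was measured in cannot be told apart. Markers of mesangial cells summed to 2500 to 2640 CPM in WT-SD and to 10500 to 10600 CPM in KO-TGF, mostly from Acta2 and Tagln, although the markers Thy1 and Ren1 had at most 3 counts in every library. Other markers of that list went the opposite way, with Des at 7.67 CPM in WT-SD and 0.247 in KO-TGF and Itga8 at 2.89 and 0.638. The KO-SD library labelled replicate 1 stood somewhat apart from the other two (chi-square per degree of freedom of 5.20 and 4.91 over genes, against 1.33 to 2.95 in the other pairs), and without it KO-SD still had 30 members above WT-SD and 2 below.

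ATF4 is a basic leucine zipper transcription factor whose mRNA is translated more when the initiation factor eIF2 is phosphorylated, by kinases that sense lack of amino acids, misfolded protein in the endoplasmic reticulum, heme shortage or double-stranded RNA. With C/EBP-family partners it switches on genes for the import and synthesis of amino acids, for the charging of tRNAs and for its own feedback. Collagen, which mesangial cells make under TGF-β, is unusually rich in glycine and proline, products of the serine, one-carbon and proline pathways followed here. RNA-seq measures the mRNA of Atf4 and of its targets, not the ATF4 protein.

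ATF4 with a C/EBP partner binds a composite element with the letters TGATGNAA, and the promoter stretches that hold it are printed because they show which of the genes described next carry the letters close to their start. The 250 bases before each RefSeq start were searched for TGATGNAA on either strand, which reads TTNCATCA on the other. Of the 37 members 32 had a promoter window, and 6 of the 32 (18.8%) had a match, against 1056 of 27025 genes in all (3.91%) and 210 of 8984 genes among those tested in these libraries (2.34%). The matches are given as 60 bases of RefSeq sequence each (GRCm38.p6, the assembly of mm10), read 5′ to 3′ on the strand of the gene with the element in capitals.
Chac1 (chr2:119351023-119351082, plus strand): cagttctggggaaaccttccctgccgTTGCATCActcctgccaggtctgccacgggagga
Asns (chr6:7693210-7693269, minus strand): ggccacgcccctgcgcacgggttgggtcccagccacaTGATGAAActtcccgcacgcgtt
Nupr1 (chr7:126625547-126625606, minus strand): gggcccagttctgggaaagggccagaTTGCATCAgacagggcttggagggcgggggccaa
Pycr1 (chr11:120643818-120643877, minus strand): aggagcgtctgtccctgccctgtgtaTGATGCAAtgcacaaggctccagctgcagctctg
Vldlr (chr19:27216794-27216853, plus strand): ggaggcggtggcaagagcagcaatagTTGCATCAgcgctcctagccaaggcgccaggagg
Got1 (chr19:43524674-43524733, minus strand): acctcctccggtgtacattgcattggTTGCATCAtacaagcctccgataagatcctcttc
The element started 193 bases before the start site in Chac1, 23 in Asns, 110 in Nupr1, 103 in Pycr1, 200 in Vldlr and 102 in Got1. For Vldlr the start is a later one of the gene, so that its element lies inside the annotated gene and not before it. In Chac1, Nupr1, Vldlr and Got1 it was the same 8 letters, TTGCATCA. A match is a description of letters and not a site, and elements elsewhere in a gene were not searched. Aldh1l2, Cth, Slc1a5, Slc7a3 and Slc7a5 had no window.

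Of the 37 members 34 were tested, with more than 1 RPKM (CPM per kilobase of exon) in at least 1 library, and these 34 passed that limit in every library of every group. The other three, Shmt1, Cbs and Slc7a3, lay below it and are read from a fit without the limit, on 18565 genes. In WT-SD the levels per exon length ran from 1.95 ± 0.119 RPKM (SD, n = 3) for Pycr1 among the members tested to 115 ± 1.17 RPKM for Nupr1, with Atf5 at 86.4 ± 4.69 and Atf4 at 70.5 ± 1.19 RPKM. Atf4 itself (NCBI gene 11911) lies on chromosome 15 of mm10 from 80255184 to 80257545. In KO-TGF the order at the top was Atf5 (197 ± 3.69 RPKM), Nupr1 (192 ± 6.83 RPKM) and Atf4 (181 ± 3.0 RPKM), and the SDs of Atf5 and Nupr1 overlap.

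The first question was what TGF-β did to these genes in WT MMC. At FDR <5% by the quasi-likelihood test of edgeR, with Benjamini-Hochberg adjustment over all genes tested, TGF-β left 25 of the 34 members higher in WT and 7 lower. Of all 11529 genes, 36.0% were higher and 36.4% lower. The median log2 fold change was 0.76 over the 34 members and -0.005 over all genes. With a fold change above 2 in either direction there were 11 members (32.4%), against 9.91% of all genes. In the KO libraries 25 members were again higher with TGF-β and 5 lower, where 34.9% of all genes were higher and 39.1% lower, with a median of 0.82 over the members and -0.03 over all genes, and 11 members passed the fold of 2 against 13.5% of all genes. The 2 responses share no library. Of the members higher in WT 24 were also higher in KO (96.0% of each list), with Psat1 called in WT alone and Mthfd1 in KO alone, and all 5 that were lower in KO were lower in WT (71.4% of the 7). The share of all genes called in both responses is not given here, so this overlap cannot be set against it.

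**Figure D1:**
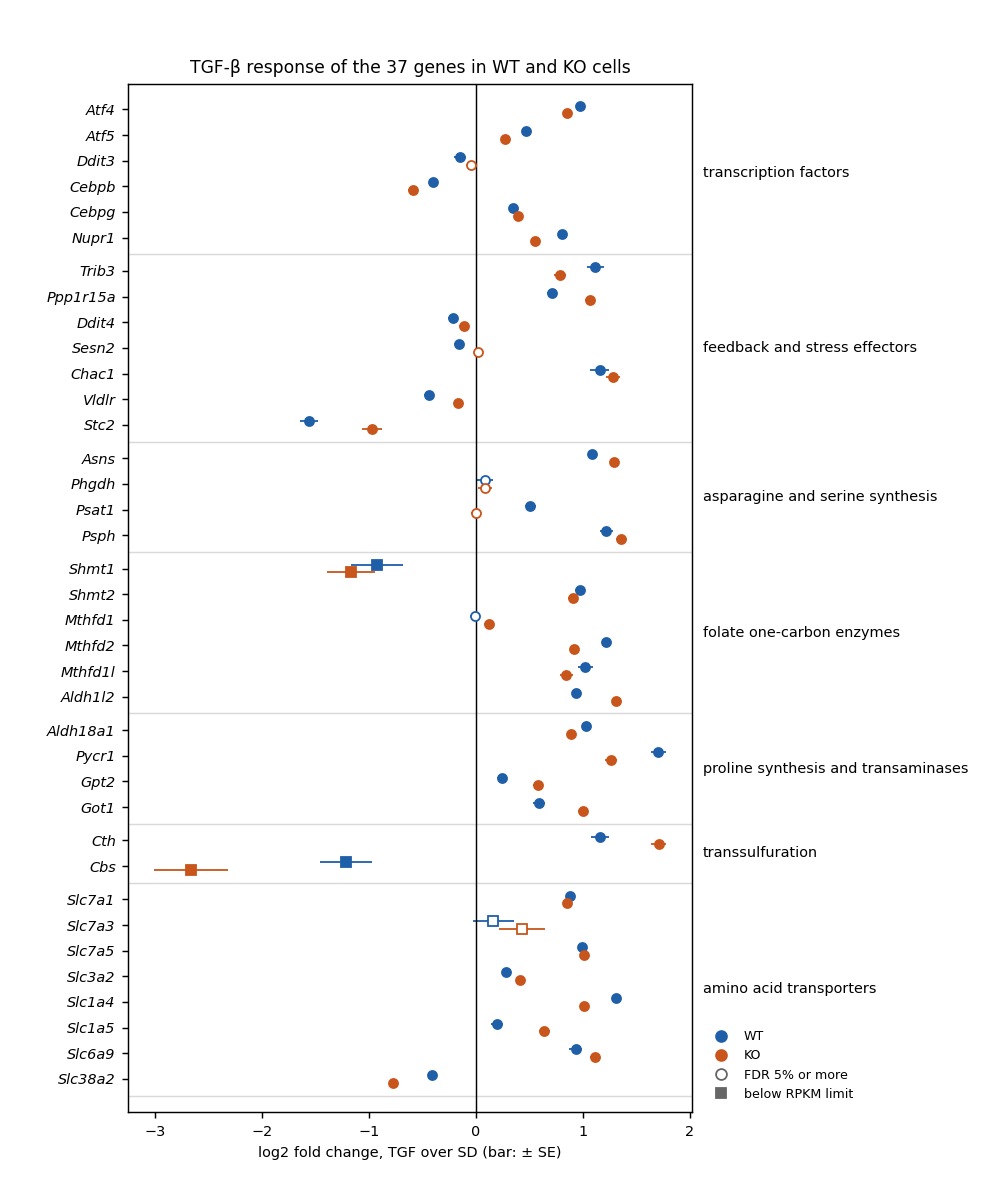
TGF-β response of the 37 genes: log2 fold change of TGF over SD with its standard error (horizontal axis) for each gene by role (vertical axis), in WT (blue) and KO (orange). Filled symbols passed FDR <5%, and squares are the 3 genes below the RPKM limit. Most points lie right of 0 in both genotypes, with medians of 0.76 in WT and 0.82 in KO over the 34 genes tested, while Ddit3, Ddit4, Cebpb, Vldlr, Stc2, Slc38a2, Shmt1 and Cbs lie left of 0 in both.

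Another scaling moves these splits of all genes. With library sizes in place of TMM the median of all genes became -0.16 for the TGF-β response in WT, -0.23 for that in KO and -0.13 for KO-TGF against WT-TGF, and the TMM factors ranged from 0.898 in KO-TGF to 1.096 in WT-SD. All genes then split into 2641 higher and 6056 lower in WT with TGF-β (4151 and 4198 under TMM) and 2295 and 6717 in KO (4027 and 4510). The members then split into 23 higher and 8 lower in WT and 24 and 8 in KO. In both genotypes the median stayed positive for each role except the feedback and stress effectors, whose median was -0.16 in WT and 0.02 in KO under TMM and -0.32 and -0.18 with library sizes.

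Among the transcription factors, Atf4 rose with TGF-β in both genotypes. Atf4 had 164, 166 and 169 CPM in WT-SD, 332, 332 and 317 in WT-TGF, 236, 243 and 233 in KO-SD and 423, 424 and 436 in KO-TGF. The 4 groups did not overlap, and they stepped up from WT-SD over KO-SD and WT-TGF to KO-TGF. The log2 fold change with TGF-β was 0.98 in WT (SE 0.0272, edgeR FDR = 5.14e-24) and 0.85 in KO (SE 0.0264, edgeR FDR = 8.02e-23). Atf5, a related factor that ATF4 induces, rose by 0.47 in WT and by 0.27 in KO on the log2 scale, where WT libraries averaged 172 ± 9.34 CPM in SD and 238 ± 2.50 in TGF, and KO libraries 325 ± 5.01 and 393 ± 7.34. Cebpg, a dimer partner of ATF4, rose by 0.35 and 0.40, and Nupr1, a small chromatin-associated stress protein, by 0.81 and 0.55. Cebpb, another C/EBP factor, fell in both, by 0.40 in WT and by 0.59 in KO.

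Ddit3 encodes CHOP, the C/EBP-like factor of prolonged endoplasmic reticulum stress, and did not follow Atf4. Ddit3 had 33.3, 37.6 and 35.1 CPM in WT-SD, 34.2, 32.1 and 29.5 in WT-TGF, 50.3, 53.2 and 56.6 in KO-SD and 50.7, 53 and 51.8 in KO-TGF. The SD and TGF libraries overlapped within each genotype, and the KO libraries lay above all WT libraries. Its log2 fold change with TGF-β was -0.14 in WT (edgeR FDR = 0.0217), a call of Ddit3 that was lost without WT-SD replicate 2 (FDR = 0.174), without WT-TGF replicate 3 (FDR = 0.166) or with no limit on RPKM (FDR = 0.0507). In KO it was -0.04 under TMM (edgeR FDR = 0.448) and -0.25 with library sizes alone (FDR = 4.85e-05).

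The feedback and stress effectors divided. Trib3, a pseudokinase that binds and restrains ATF4, Ppp1r15a, the phosphatase subunit that removes the phosphate from eIF2, and Chac1, which degrades glutathione, rose in both genotypes. Trib3 had 10.1, 10.0 and 10.1 CPM in WT-SD, 19.9, 21.9 and 23.8 in WT-TGF, 31.5, 36.7 and 36.9 in KO-SD and 57.3, 62.1 and 62.1 in KO-TGF. No library of one group reached those of another, and the KO-SD libraries lay above the WT-TGF ones. The TGF-β response of Trib3 was a log2 fold change of 1.12 in WT (SE 0.0789) and 0.79 in KO (SE 0.0545). Chac1 had 7.87, 6.85 and 8.01 CPM in WT-SD, 18.9, 16.7 and 15 in WT-TGF, 14.4, 15.9 and 16.2 in KO-SD and 35.7, 39.2 and 38.3 in KO-TGF. The libraries of WT-TGF and KO-SD overlapped, with WT-SD below them and KO-TGF above. Chac1 rose with TGF-β by 1.16 in WT (SE 0.0883) and by 1.28 in KO (SE 0.0686), and Ppp1r15a by 0.71 and 1.07.

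The other effectors did not rise. Stc2, a secreted glycoprotein of calcium and stress handling, had 19.6, 18.4 and 17.7 CPM in WT-SD, 6.67, 5.97 and 6.27 in WT-TGF, 11.1, 12.1 and 10.6 in KO-SD and 5.52, 5.67 and 6.04 in KO-TGF. It was highest in WT-SD, and the TGF libraries of both genotypes overlapped at the bottom. Stc2 fell with TGF-β by 1.56 in WT (SE 0.0815) and by 0.97 in KO (SE 0.0946), the largest decreases among the members tested. Vldlr, a lipoprotein receptor, fell by 0.44 in WT and by 0.17 in KO. Ddit4, an inhibitor of mTORC1, fell by 0.21 in WT and by 0.11 in KO, where its libraries overlapped and the call was lost by DESeq2 (FDR = 0.126) and without any one KO library other than KO-SD replicate 1 (FDR from 0.0609 to 0.245). Sesn2, a leucine sensor that restrains mTORC1, fell by 0.16 in WT and averaged 77.9 ± 4.51 CPM in KO-SD beside 79.1 ± 3.16 in KO-TGF.

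**Figure D2:**
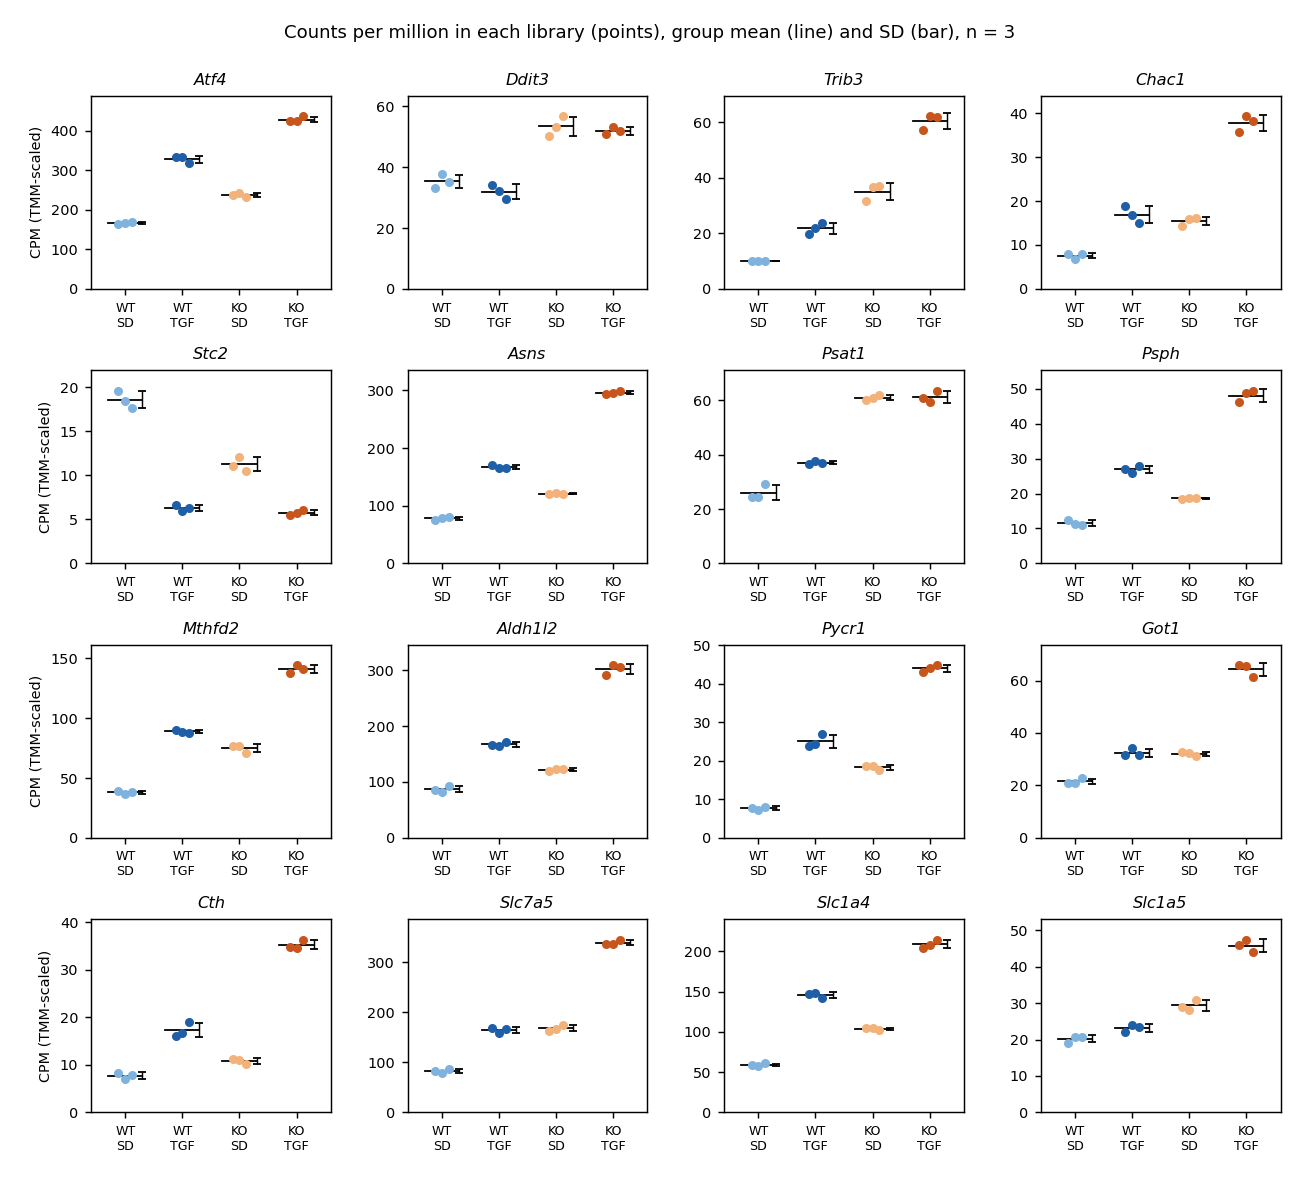
CPM of the 16 members written out by library (vertical axis from 0) in the 4 groups, with the group mean as a line and its SD as a bar (n = 3). Atf4 steps up from 166 in WT-SD to 428 in KO-TGF, Psat1 sits between 59.2 and 63.5 in both KO groups, and Stc2 is highest in WT-SD.

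Most genes for making amino acids were higher with TGF-β. Asns, asparagine synthetase (NCBI gene 27053, chromosome 6 of mm10 from 7675165 to 7693209), had 75.7, 79 and 81 CPM in WT-SD, 170.2, 166 and 165 in WT-TGF, 119.9, 121 and 121 in KO-SD and 294, 295 and 299 in KO-TGF. All 4 groups were apart, with the spread within each far below the steps between them. Its log2 fold change with TGF-β was 1.09 in WT (SE 0.0289, edgeR FDR = 1.63e-24) and 1.29 in KO (SE 0.0269, edgeR FDR = 2.26e-27). The 3 enzymes that make serine from a glycolytic intermediate differed from one another. Phgdh, the first, averaged 15.6 ± 1.54 CPM in SD and 16.6 ± 1.01 in TGF in WT, and 25.9 ± 1.45 and 27.4 ± 0.901 in KO, with an edgeR FDR of 0.283 and 0.217 for TGF-β, although without WT-SD replicate 3 Phgdh passed in WT (FDR = 0.0436). Psat1, the second (chromosome 19 of mm10 from 15905123 to 15925059), had 24.4, 24.4 and 29.3 CPM in WT-SD, 36.6, 37.6 and 36.9 in WT-TGF, 60.3, 60.8 and 62 in KO-SD and 61, 59.2 and 63.5 in KO-TGF. In WT its groups were apart, and in KO they overlapped at a level above every WT library. The TGF-β response of Psat1 was 0.51 in WT (SE 0.0547, edgeR FDR = 1.16e-09), and in KO it was 0.01 (SE 0.0455, edgeR FDR = 0.918) under TMM and -0.20 (FDR = 0.000207) with library sizes alone. Psph, the last step, had 12.4, 11.1 and 11.1 CPM in WT-SD, 26.9, 25.9 and 28 in WT-TGF, 18.5, 18.8 and 18.8 in KO-SD and 46.1, 48.7 and 49.4 in KO-TGF. Psph had the same order of groups as Asns and rose with TGF-β by 1.22 in WT and by 1.36 in KO.

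The folate enzymes that use serine to make one-carbon units divided by compartment. The mitochondrial ones rose in both genotypes: Shmt2, which splits serine into glycine and a one-carbon unit, by 0.98 in WT and 0.91 in KO, Mthfd1l by 1.03 and 0.85, Mthfd2 by 1.22 and 0.92, and Aldh1l2 by 0.94 and 1.31. Mthfd2, the mitochondrial dehydrogenase and cyclohydrolase, had 39.3, 36.6 and 38.6 CPM in WT-SD, 90.2, 88.8 and 87.9 in WT-TGF, 76.4, 76.9 and 70.9 in KO-SD and 138, 144 and 141 in KO-TGF. Aldh1l2, which oxidises formyl-folate, had 86.2, 82.7 and 93.5 CPM in WT-SD, 165, 165 and 172 in WT-TGF, 119.5, 123 and 124 in KO-SD and 291, 309 and 306 in KO-TGF. The groups did not overlap in either gene, and both were highest in KO-TGF. The cytosolic enzymes did not rise alike. Mthfd1 averaged 38.9 ± 0.674 CPM in WT-SD and 38.6 ± 1.11 in WT-TGF, a log2 fold change of -0.01 under TMM that was -0.17 with library sizes alone (FDR = 0.00101). The rise of Mthfd1 in KO, by 0.12, was lost without KO-SD replicate 1 (FDR = 0.0719) and became -0.08 with library sizes alone (FDR = 0.0909). Shmt1, with 14 to 54 counts per library, fell in both, with a log2 fold change of -0.92 in WT and -1.17 in KO in the fit without the limit.

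Proline synthesis and the transaminases rose in both genotypes, 4 of 4 members each. Pycr1, which completes proline, had 7.82, 7.16 and 8.05 CPM in WT-SD, 23.7, 24.4 and 27 in WT-TGF, 18.7, 18.6 and 17.5 in KO-SD and 43.1, 44.1 and 44.8 in KO-TGF. It had the largest response of the members tested in WT, a log2 fold change of 1.70 (SE 0.0707), and one of 1.27 (SE 0.0559) in KO. Aldh18a1, the enzyme at the start of proline synthesis, rose by 1.03 and 0.89. Got1, the cytosolic aspartate transaminase, had 20.9, 21 and 22.8 CPM in WT-SD, 31.5, 34.3 and 31.4 in WT-TGF, 32.8, 32.3 and 31.2 in KO-SD and 65.8, 65.5 and 61.5 in KO-TGF. The WT-TGF and KO-SD libraries of Got1 overlapped, and the KO-TGF libraries lay far above all others. Got1 rose by 0.59 in WT and 1.0 in KO, and Gpt2, a mitochondrial alanine transaminase, by 0.25 and 0.58, of which the rise in WT was lost with library sizes alone (0.09, FDR = 0.118).

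The 2 transsulfuration genes, which take homocysteine to cysteine, parted. Cth, the second enzyme (chromosome 3 of mm10 from 157894248 to 157925081), had 8.28, 6.98 and 7.92 CPM in WT-SD, 16.1, 16.8 and 19 in WT-TGF, 11.2, 11 and 10.1 in KO-SD and 34.9, 34.6 and 36.4 in KO-TGF. Cth rose with TGF-β by 1.16 in WT (SE 0.0810) and by 1.71 in KO (SE 0.0687), the largest response of the members tested in KO. Cbs, the first enzyme, was scarce, with 35 to 46 counts in the WT-SD libraries, 13 to 21 in WT-TGF, 23 to 41 in KO-SD and 1 to 9 in KO-TGF, and fell in both genotypes, with log2 fold changes of -1.21 and -2.66 in the fit without the limit.

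Of the 7 transporters tested 6 rose in both genotypes and Slc38a2 fell. Slc7a5, the light chain of the carrier for leucine and other large neutral amino acids, had 82.5, 78.5 and 87.1 CPM in WT-SD, 168, 158 and 166 in WT-TGF, 162, 166 and 175 in KO-SD and 336, 336 and 345 in KO-TGF. The WT-TGF and KO-SD libraries overlapped, with WT-SD below and KO-TGF above them. The TGF-β response of Slc7a5 was 0.99 in WT (SE 0.0350) and 1.02 in KO (SE 0.0316). Slc3a2, its heavy chain, rose by 0.28 and 0.42. Slc1a4, a carrier of alanine, serine and cysteine, had 58.2, 57.5 and 60.8 CPM in WT-SD, 147, 148 and 142 in WT-TGF, 105, 104 and 102 in KO-SD and 204, 208 and 214 in KO-TGF. Slc1a5, a glutamine carrier, had 19.1, 20.8 and 20.7 CPM in WT-SD, 21.9, 24.1 and 23.5 in WT-TGF, 28.9, 28.1 and 31 in KO-SD and 46, 47.4 and 43.9 in KO-TGF. Slc1a4 thus stood higher in WT-TGF than in KO-SD, and Slc1a5 lower. Slc1a4 rose by 1.31 in WT and 1.01 in KO. Slc1a5 rose by 0.64 in KO and by 0.20 in WT, where the call was lost with library sizes alone (0.04, FDR = 0.558). Slc7a1, the carrier of arginine and lysine, rose by 0.88 and 0.86, and Slc6a9, a glycine carrier, by 0.93 and 1.12. Slc38a2, a carrier of small neutral amino acids that is also a known ATF4 target, fell by 0.40 in WT (381 ± 7.82 CPM in SD, 288 ± 4.51 in TGF) and by 0.77 in KO (564 ± 11 CPM in SD, 330.0 ± 5.15 in TGF). Slc7a3, with 26 to 62 counts per library, was called in none of the 5 comparisons.

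The second question was how KO MMC differed from WT MMC in each condition. In SD, 30 of the 34 members were higher in KO and 2, Cebpb and Stc2, were lower, by the same edgeR test, while 30.9% of all genes were higher and 25.2% lower. All 34 members tested but Ppp1r15a and Mthfd1 were therefore called. The median log2 fold change was 0.57 over the members and 0.02 over all genes, and 5 members (14.7%) passed a fold of 2, against 6.44% of all genes. With TGF-β, 31 members were higher and 2, Cebpb and Nupr1, were lower, against 27.2% and 27.8% of all genes, with a median of 0.68 over the members and -0.004 over all genes. Of these, 4 (11.8%) passed a fold of 2, against 6.06% of all genes. The comparisons in SD and in TGF share no library. Of the members higher in KO-SD 29 were also higher in KO-TGF (96.7% of the 30 and 93.5% of the 31), with Nupr1 called in SD alone and Ppp1r15a and Mthfd1 in TGF alone. For this overlap too the share of all genes is not given. With library sizes alone 30 members were higher and 3 lower in each condition.

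**Figure D3:**
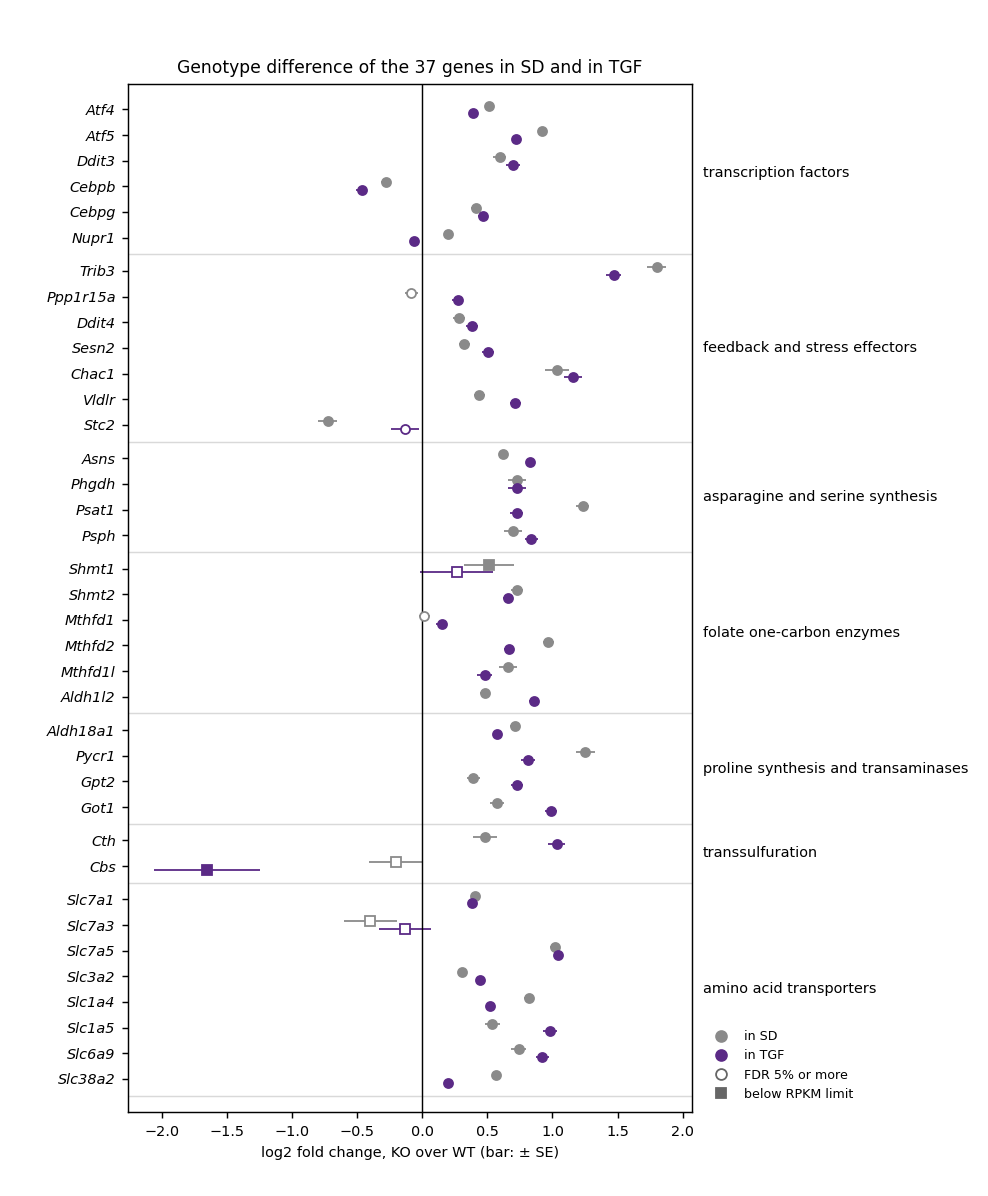
Difference between KO and WT for the 37 genes: log2 fold change of KO over WT with its standard error (horizontal axis) for each gene by role (vertical axis), in SD (grey) and in TGF (purple). Filled symbols passed FDR <5%, and squares are the 3 genes below the RPKM limit. Trib3 lies farthest right, at 1.80 in SD and 1.47 in TGF, and Cebpb lies left of 0 in both conditions.

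In SD the largest differences of members tested were those of Trib3, with a log2 fold change of 1.80 (SE 0.0724, edgeR FDR = 1.9e-19), Pycr1 (1.25, SE 0.0749), Psat1 (1.23, SE 0.0507), Chac1 (1.03, SE 0.0897) and Slc7a5 (1.02, SE 0.0349). Atf4 was 0.51 higher on the log2 scale (SE 0.0275, edgeR FDR = 2.47e-16) and Atf5 0.92 higher. Ddit3, which was not higher with TGF-β in either genotype, was 0.59 higher in KO-SD. The 4 genes of asparagine and serine synthesis were all higher, among them Phgdh (0.73) and Asns (0.62), and so were Shmt2 (0.73), Mthfd2 (0.97), Mthfd1l (0.66) and Aldh1l2 (0.48). Mthfd1 averaged 39.3 ± 1.25 CPM in KO-SD beside 38.9 ± 0.674 in WT-SD. Ppp1r15a, with a log2 fold change of -0.08 under TMM, was lower at -0.16 with library sizes alone (FDR = 0.00904). Of the transporters, Slc1a4 (0.82), Slc6a9 (0.74), Slc38a2 (0.57), Slc1a5 (0.54), Slc7a1 (0.41) and Slc3a2 (0.31) were higher beside Slc7a5, so that all 7 tested passed.

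With TGF-β the largest differences of members tested were those of Trib3 (1.47, SE 0.0591), Chac1 (1.16, SE 0.0676), Slc7a5 (1.05, SE 0.0316), Cth (1.03, SE 0.0631) and Got1 (0.99, SE 0.0463). Atf4 was 0.39 higher in KO-TGF (SE 0.0260, edgeR FDR = 6.67e-14). Slc1a5 (0.98), Slc6a9 (0.92), Aldh1l2 (0.85), Psph (0.84), Asns (0.83) and Pycr1 (0.81) followed, and the other members higher lay between 0.15 (Mthfd1) and 0.73. Cebpb had a log2 fold change of -0.46, after -0.28 in SD. Nupr1 averaged 505 ± 8.90 CPM in WT-TGF beside 484 ± 17.2 in KO-TGF, with libraries that overlapped. Its call (log2 fold change -0.06, edgeR FDR = 0.0463) was lost by DESeq2 (FDR = 0.179), under both other filters, and without WT-TGF replicate 2 or 3 or KO-TGF replicate 1 or 2 (FDR from 0.113 to 0.507). Stc2, with -0.73 in SD, averaged 6.30 ± 0.347 CPM in WT-TGF beside 5.74 ± 0.271 in KO-TGF, and passed as lower with library sizes alone (-0.25, FDR = 0.0407). Mthfd1 passed under TMM, at 42.8 ± 0.634 CPM in KO-TGF beside 38.6 ± 1.11 in WT-TGF, but not with library sizes alone (0.03, FDR = 0.625). Of the genes below the RPKM limit, Shmt1 was higher in KO in SD (0.51, edgeR FDR = 0.0203), and Cbs, with 1 to 9 counts in KO-TGF, was lower in KO with TGF-β (-1.65, edgeR FDR = 0.000204).

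Markers of other cells moved with the genotype. The 6 podocyte markers summed to 459 to 467 CPM in WT-SD and 455 to 474 CPM in WT-TGF, and to 218 to 227 CPM in KO-SD and 205 to 220 CPM in KO-TGF, mostly from Synpo, Wt1 and Podxl, while the defining marker Nphs1 had at most 3 counts in every library. The 7 macrophage markers summed to 26.2 to 28.1 CPM in WT-SD, 15.8 to 19.5 in WT-TGF, 2.06 to 2.22 in KO-SD and 0.802 to 1.45 in KO-TGF, and Adgre1 and C1qa were at 0 in all KO libraries. Of 6 tubular markers, which summed to 46.2 to 49.1 CPM in WT-SD, 12.8 to 13.6 in WT-TGF, 18.1 to 20.2 in KO-SD and 6.67 to 7.28 in KO-TGF, Lrp2 gave the most and Umod was at 0. In that list Slc12a1 went the other way, from 0.358 CPM in WT-SD to 1.25 in KO-SD and 3.05 in KO-TGF, and Aqp1 was at 4.10 in WT-SD and 6.80 in KO-SD. The 6 endothelial markers summed to at most 1.01 CPM in any library. Mesangial markers summed to 4810 to 4970 CPM in KO-SD and 5580 to 5740 CPM in WT-TGF, between the other groups. The part of these markers in the genotype differences was not tested. In such bulk libraries fewer cells of a type and less RNA per cell cannot be told apart.

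The third question was whether the TGF-β response itself differed between genotypes, tested as the interaction, which is the log2 response in KO minus that in WT. At FDR <5% it was positive in 11 members and negative in 11, and 12 passed in neither direction. Among all genes 8.67% were positive and 16.6% negative, with a median of -0.03, against 0.07 over the members. That split of all genes, 1000 positive and 1915 negative, moved with the scaling. It was 1292 and 1627 with DESeq2 size factors, and 686 and 2648 with library sizes alone. None of the 34 members tested differed by a fold above 2, while 2.73% of all genes did. Among those 34 the differences in response ran from -0.51 (Psat1) to 0.59 (Stc2).

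**Figure D4:**
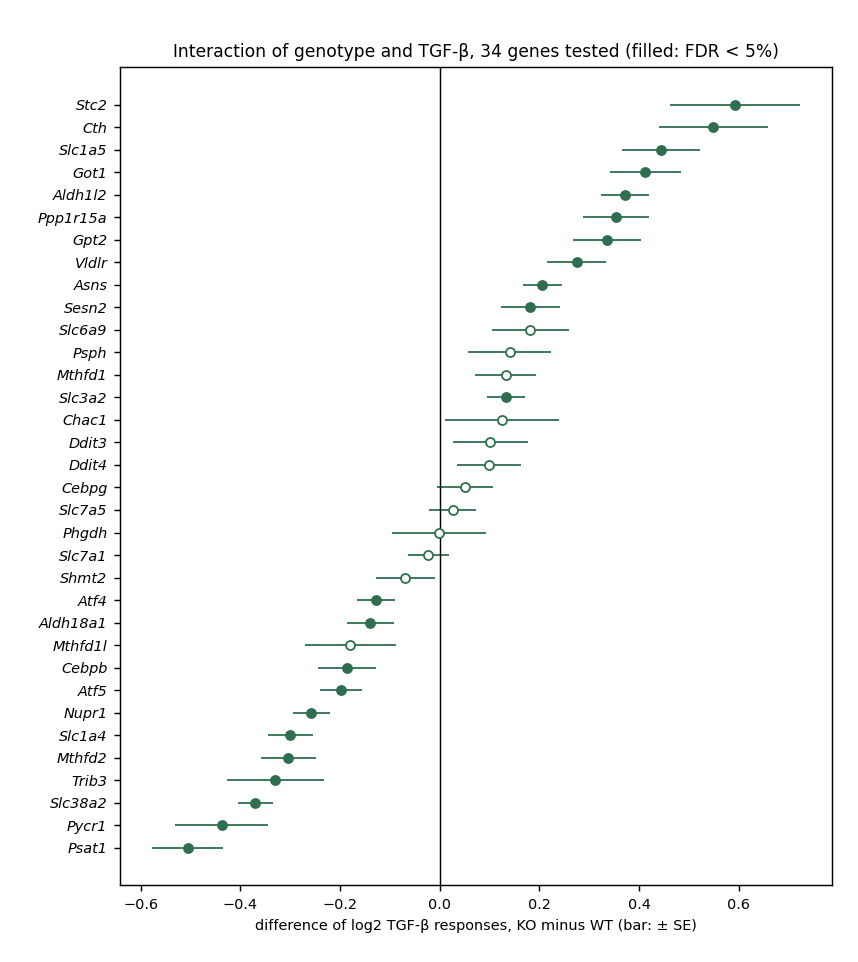
Interaction of genotype and TGF-β for the 34 members tested, ordered by size: log2 response in KO minus that in WT with its standard error (horizontal axis) for each gene (vertical axis). Filled points passed FDR <5%, 11 on either side of 0, from Psat1 at -0.51 to Stc2 at 0.59.

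Among genes that rose in both genotypes, the rise was larger in KO for Cth (interaction 0.55, SE 0.110, edgeR FDR = 0.000268), Slc1a5 (0.44), Got1 (0.41), Aldh1l2 (0.37), Ppp1r15a (0.35), Gpt2 (0.34), Asns (0.21) and Slc3a2 (0.13). It was smaller in KO for Pycr1 (-0.44, SE 0.0933, edgeR FDR = 0.000551), Trib3 (-0.33), Mthfd2 (-0.30), Slc1a4 (-0.30), Nupr1 (-0.26), Atf5 (-0.20), Aldh18a1 (-0.14) and Atf4 (-0.13). Psat1 rose in WT, and its interaction was -0.51 (SE 0.0712, edgeR FDR = 1.75e-06). Of the genes that fell, Stc2 (0.59) and Vldlr (0.27) fell less in KO, and Slc38a2 (-0.37) and Cebpb (-0.19) fell more. Sesn2, which fell in WT, had an interaction of 0.18. The smaller rise of Atf4 in KO (SE 0.0378, edgeR FDR = 0.0116) was not called by DESeq2 (-0.10, FDR = 0.076) or without any one KO-TGF library (FDR from 0.0636 to 0.168). That of Trib3 (SE 0.0972, edgeR FDR = 0.0112) was not called without WT-TGF replicate 3 (FDR = 0.0514) or KO-TGF replicate 1 (FDR = 0.0669). Aldh18a1 and Cebpb were not called by DESeq2 (FDR = 0.144 and 0.102) nor without KO-TGF replicate 1 or 2, among other single libraries. Sesn2 and Slc3a2 were not called with library sizes alone (FDR = 0.0884 and 0.0941), nor Sesn2 without WT-SD replicate 2, WT-TGF replicate 3 or KO-SD replicate 1.

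Several of the larger responses had no interaction past the threshold. The interaction was 0.03 (SE 0.0472) for Slc7a5 under TMM and negative with library sizes alone, -0.02 (SE 0.0404) for Slc7a1, -0.07 (SE 0.0598) for Shmt2, 0.14 (SE 0.0835) for Psph and 0.12 (SE 0.115) for Chac1. That of Slc6a9 was 0.18 (SE 0.0775, edgeR FDR = 0.0881). It passed with DESeq2 size factors in edgeR (0.21, FDR = 0.0459) and without KO-TGF replicate 1 (0.26, FDR = 0.0136). Among the genes below the RPKM limit Cbs passed, at -1.45 (edgeR FDR = 0.0129). A missed threshold does not show that these responses were equal.

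Genes next to the 37 in the same pathways were read from 7 further lists. Their counts stand beside the shares of all genes: 36.0% higher and 36.4% lower with TGF-β in WT, 34.9% and 39.1% in KO, 30.9% and 25.2% in KO against WT in SD, and 27.2% and 27.8% in TGF. With library sizes alone all genes split between genotypes into 2444 higher and 4192 lower in SD and 1643 and 5409 in TGF. All 20 cytosolic aminoacyl-tRNA synthetases, which charge tRNAs, were higher with TGF-β in WT and in KO, with medians of 0.52 and 0.67, and 17 were higher in KO-SD than in WT-SD and 16 in KO-TGF than in WT-TGF, with none lower. Gars, for glycine, had the largest rise of the list in both genotypes, 1.0 in WT (139 ± 3.44 CPM in SD, 278 ± 3.67 in TGF) and 1.07 in KO (204 ± 3.94 CPM in SD, 426 ± 6.41 in TGF). Aars, for alanine, had the largest genotype differences, 0.66 in SD and 0.64 in TGF. With library sizes alone 19 and 18 synthetases were higher with TGF-β, and 14 and 15 were higher in KO. The element TGATGNAA was in 3 of 13 synthetase promoters (23.1%), against 2.34% of all genes tested.

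The XBP1 and ATF6 arms of the unfolded protein response, the branches that enlarge the folding capacity of the endoplasmic reticulum, rose as fully. All 16 genes were higher with TGF-β in WT (median 0.69) and in KO (median 0.61), 12 were higher in KO-SD and 10 higher and 1 lower in KO-TGF. Those were, with library sizes alone, 10 higher and 2 lower in SD and 8 and 3 in TGF, after 16 and 15 higher with TGF-β. Manf, a secreted stress-induced factor, rose by 1.18 in WT (56.2 ± 1.80 CPM in SD, 128 ± 0.942 in TGF), and Xbp1 itself by 1.07 in KO. None of 13 promoters of this list held TGATGNAA, where 2.34% of all genes tested did. The other amino acid enzymes had 0 of 19 and mTORC1 and its sensors 0 of 17, so this was not particular to the list. The genes upstream of ATF4 had 1 of 11 and the other amino acid transporters 2 of 15. The genotype medians of the XBP1 and ATF6 list, 0.26 in SD and 0.18 in TGF, stood beside 0.57 and 0.68 for the members. Among 14 genes of the kinases and factors upstream of ATF4, which are the eIF2 kinases, eIF2, its exchange factor eIF2B, the phosphatase subunit Ppp1r15b and Impact, 8 rose and 2 fell with TGF-β in WT and 9 and 2 in KO. With library sizes alone 6 rose and 4 fell in each. Eif2s2, the β subunit of eIF2, rose in WT by 0.60, while Impact, which inhibits the kinase GCN2, fell by 0.54.

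**Figure D5:**
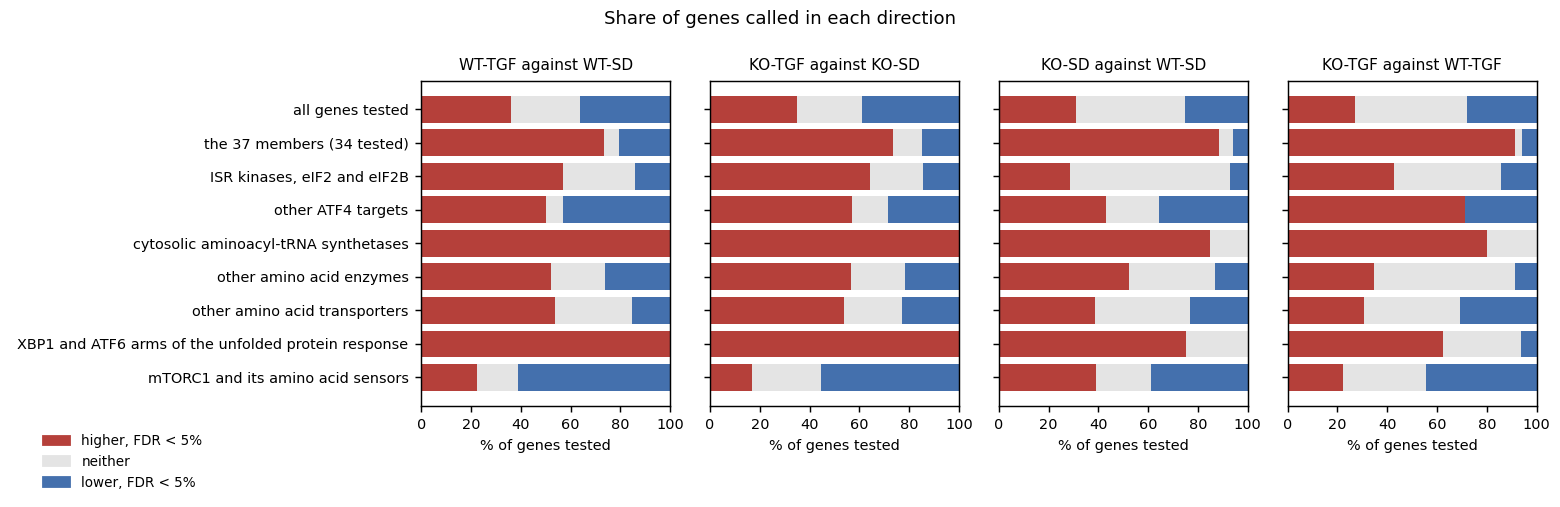
Share of genes tested that were higher (red) or lower (blue) at FDR <5% in each comparison (horizontal axis, percent), for all genes tested, the members and the 7 further lists (vertical axis). Both TGF-β panels show the synthetases and the XBP1 and ATF6 arms wholly red, and the KO against WT panels show the members with the largest red share, 88.2% in SD and 91.2% in TGF.

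Other known targets of ATF4 were mixed. Of 14, 7 rose and 6 fell with TGF-β in WT and 8 rose and 4 fell in KO, and the genotypes differed by 6 higher and 5 lower in SD and 10 and 4 in TGF. Those splits were, with library sizes alone, 6 and 6, 7 and 6, 6 and 5, and 8 and 4. Slc7a11, the cystine carrier, averaged 6.67 ± 0.493 CPM in WT-SD, 15.3 ± 0.454 in WT-TGF, 11.8 ± 1.76 in KO-SD and 35.7 ± 2.45 in KO-TGF, a genotype difference of 1.22 with TGF-β. Fgf21, a stress hormone, had 1, 2 and 0 counts in the WT-SD libraries and 7, 7 and 3 in KO-SD, and 62 to 79 counts in WT-TGF and 134 to 154 in KO-TGF, so its SD levels were at or near the floor of 3 counts. Gdf15, another secreted stress signal, went the other way: it averaged 12.5 ± 0.640 CPM in WT-SD, 6.13 ± 0.820 in WT-TGF, 3.05 ± 0.888 in KO-SD and 1.05 ± 0.301 in KO-TGF, a log2 fold change of -2.04 between genotypes in SD and -2.54 in TGF. Among the interactions called in that list, all of them positive, that of Ndrg1 was the largest, 0.67. Ndrg1 did not rise with TGF-β in either genotype. It fell in WT, from 260 ± 4.62 CPM in SD to 163 ± 6.74 in TGF, and averaged 206 ± 3.19 and 205 ± 8.21 in KO. In this list 5 of 11 genes with a promoter window held TGATGNAA (45.5%), in 5 of their 17 windows (29.4%). Among all genes tested these shares were 2.34% of genes and 1.95% of windows.

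Amino acid genes outside the 37 were mixed as well. Of 28 other enzymes 23 were tested, and 12 rose and 6 fell with TGF-β in WT and 13 and 5 in KO, while 12 were higher and 3 lower in KO-SD and 8 and 2 in KO-TGF. Bcat1, which transaminates branched-chain amino acids, had the largest positive interaction there: it averaged 201 ± 5.16 CPM in WT-SD, 169 ± 3.67 in WT-TGF, 120.3 ± 2.39 in KO-SD and 220.3 ± 1.94 in KO-TGF, a difference in response of 1.12 (SE 0.0391). Glul, glutamine synthetase, had a log2 fold change of -0.74 in KO-TGF against WT-TGF. Of 20 other amino acid transporters 13 were tested, with 7 higher and 2 lower with TGF-β in WT and 7 and 3 in KO, and 5 higher and 3 lower in KO-SD and 4 and 4 in KO-TGF. Slc7a11 is counted here and among the other ATF4 targets. Of these transporters it had the largest rise with TGF-β in KO, 1.60, and the largest positive genotype difference in TGF, 1.22. Slc7a2, an arginine carrier, averaged 79.9 ± 2.44 CPM in WT-SD, 87.9 ± 5.84 in WT-TGF, 227 ± 9.49 in KO-SD and 104 ± 0.544 in KO-TGF, so that it fell with TGF-β in KO by 1.13. Slc6a6, the taurine carrier, had log2 fold changes of -1.24 in SD and -1.14 in TGF between KO and WT. The enzymes split, with library sizes alone, into 11 higher and 10 lower with TGF-β in WT, 8 and 8 in KO, 7 and 4 between genotypes in SD and 6 and 6 in TGF, and the transporters into 6 and 5, 6 and 6, 4 and 4, and 4 and 5.

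In the list of mTORC1 and its amino acid sensors most genes were lower with TGF-β. The list joins parts of mTORC1 with genes that restrain it, among them Deptor, Tsc1, Tsc2, Sesn1 and Castor1. Its counts therefore give no direction for mTORC1 activity, which was not measured. Of 18 genes 4 rose and 11 fell in WT and 3 rose and 10 fell in KO, and 7 were higher and 7 lower in KO-SD and 4 and 8 in KO-TGF. These became, with library sizes alone, 2 and 13, 1 and 15, 3 and 8, and 2 and 11. Rragd, a Rag GTPase, fell by 2.08 in WT (42.2 ± 1.04 CPM in SD, 10.0 ± 0.413 in TGF) and had a log2 fold change of -2.85 in KO (23.7 ± 2.42 CPM in SD, 3.28 ± 0.221 in TGF). Rheb, the GTPase that activates mTORC1, rose by 0.61 in WT and by 0.83 in KO.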

How the data were processed

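RNA-seq libraries were made by the authors with an mRNA kit. Reads sequenced from one end were placed on mm10 by TopHat, and HTSeq summed them per RefSeq gene with the strand taken into account, so that the values the authors deposited are raw counts per gene and library. Reads with several alignments were not counted, so genes with near-identical copies are uncertain. Their alignments made up 11.2% to 11.7% of all entries tallied per library. Of the members 9 overlap a counted gene on the opposite strand and 0 on the same strand. Groups came from the sample labels. Genes with RPKM >1 in at least 1 library were kept (exon lengths from GENCODE vM21), which left 11529, and one model of 12 libraries with a mean per group was fitted in edgeR 4.0.16 (R 4.3.3) after TMM scaling. Contrasts were taken by its quasi-likelihood test, and p-values were adjusted by Benjamini-Hochberg. CPM are TMM-scaled. The script was tested on simulated data. For 1 gene alone, permuting 3 libraries against 3 cannot give an exact p under 0.1. Alternatives were library sizes alone, DESeq2 size factors, DESeq2 1.42.0, CPM >1 in 3 libraries, no filter, only the groups compared, a replicate block and leaving out each library. Written out by library were Atf4, Ddit3 and, for each comparison, the 5 members with the largest absolute log2 fold change at FDR <5% and at least 5 CPM on average in whichever group was higher. From the other lists the largest change in each direction was taken. The members and the lists were chosen with earlier results of these data known.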

Additional observations from a re-analysis of the deposited data

Results flagged for a closer look

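The TGF-β response differed between WT and KO MMC in 22 of the 34 members tested, by the interaction of genotype and TGF-β in edgeR at FDR <5%. Among all genes tested the interaction was positive in 8.67% and negative in 16.6%, a split that moved with the scaling. None of the 34 members differed by a fold above 2, against 2.73% of all genes. As log2 response in KO minus that in WT, the difference was -0.51 for Psat1, -0.44 for Pycr1, -0.37 for Slc38a2, -0.33 for Trib3, -0.30 for Mthfd2, -0.30 for Slc1a4, -0.26 for Nupr1, -0.20 for Atf5, -0.19 for Cebpb, -0.14 for Aldh18a1 and -0.13 for Atf4. It was 0.13 for Slc3a2, 0.18 for Sesn2, 0.21 for Asns, 0.27 for Vldlr, 0.34 for Gpt2, 0.35 for Ppp1r15a, 0.37 for Aldh1l2, 0.41 for Got1, 0.44 for Slc1a5, 0.55 for Cth and 0.59 for Stc2. Cbs, below the RPKM limit and with 1 to 9 counts in the KO-TGF libraries, had -1.45 in the fit without that limit. The genotype and the cultures cannot be told apart in any of them. Of the 34 members tested, 7 of the 11 negative differences and 9 of the 11 positive ones passed under every alternative tried.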

How the results depend on the processing

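Of 3196 values of the 34 members under the alternatives, 3100 kept their direction and their side of FDR 5%, 50 lost a call, 8 gained one and 38 changed sign. In SD all 32 genotype calls held under every alternative. Members lower in KO-TGF than in KO-SD became 8 with library sizes alone, and those lower than in WT-TGF became 1 with DESeq2 size factors and with DESeq2, and 1 to 2 when a library was left out. Members with a negative interaction were 7 to 11 when a library was left out, and 7 without KO-TGF replicate 1. All genes had 1915 negative and 1000 positive interaction calls in the main fit. These became 1420 and 1327 without KO-TGF replicate 1, 1408 and 1249 without replicate 2 and 1377 and 1251 without replicate 3. They were 1627 and 1292 with DESeq2 size factors, and 2648 and 686 with library sizes alone. With library sizes alone the sign changed for the TGF-β response of Phgdh (-0.071 in WT, -0.12 in KO), Mthfd1 (-0.0822 in KO), Psat1 (-0.20 in KO) and Sesn2 (-0.18 in KO), for Mthfd1 in KO-SD against WT-SD (-0.0597) and for the interaction of Slc7a5 (-0.0197). The response of Mthfd1 in WT became 0.0088 with the CPM filter and 0.0199 with no filter, and its difference in SD -0.0037 in the fit of only the groups compared. The interaction of Phgdh became 0.0262 with DESeq2 size factors and 0.0254 with DESeq2, and that of Slc7a1 0.0049 with either. Leaving out a library, the range was -0.0342 to 0.0075 for Mthfd1 in WT, -0.0848 to 0.0023 for Ddit3, -0.0239 to 0.068 for Sesn2 and -0.0034 to 0.05 for Psat1 in KO, -0.0052 to 0.0426 for Mthfd1 in SD, and -0.0878 to 0.061, -0.0435 to 0.0191 and -0.0153 to 0.0727 for the interactions of Phgdh, Slc7a1 and Slc7a5. The cause of these changes was not tested. With the replicate number as a replicate block the members called were again 25 and 7, 25 and 5, 30 and 2, 31 and 2, and 11 and 11. The deviations of same-numbered libraries had correlations from -0.03 to 0.08, which do not show whether such libraries shared a culture, mouse or batch. Depth limits Cbs, Shmt1, Slc7a3 and Fgf21, with few counts in some libraries.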
